A study of Mus musculus with 9 samples.

Results

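The genes described here are 10 members of the EGF system: the ligand genes Areg, Ereg, Epgn, Hbegf, Tgfa and Btc, the receptor genes Egfr, Erbb2 and Erbb3, and Errfi1, which encodes a feedback inhibitor of these receptors. They were chosen by name, and 9 of the 10 had values among the 8742 genes in the authors' lists of changes between groups. The transcript level of Egfr is not analysed here. The RNA came from organoids of mouse esophagus, small multilayered bodies that the epithelial cells form in culture. The 9 libraries formed 3 groups of 3, all untreated and all collected on day 7 after seeding: organoids with no edit (WT), organoids whose label gives a Trp53 and Notch1 knockout (PN), and organoids whose label gives a knockout of Trp53, Cdkn2a and also Notch1 (PCN). The labels give no strain, age, number of clones or batch, nor whether separate cultures or animals stand behind the libraries, so the spread that the p-values rest on may be technical. The comparisons ask how transcript levels differ with each combination of labelled edits.

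EGF family ligands are made as membrane-anchored precursors and are released by metalloproteases, chiefly ADAM17. The released part carries an EGF-like domain that binds EGFR and, for some ligands, ERBB4. Binding lets the receptors pair with each other or with ERBB2, which has no known ligand of its own, and ERBB3, whose kinase is weak and which signals mainly to PI3K. In squamous epithelia such as that of the esophagus, this system is known for driving growth of basal cells and repair of wounds, and several of the ligand genes are themselves induced by the signal. ERRFI1 closes a loop, because it is induced by the signal and blocks the kinase of the active receptor.

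The EGF-like domain is what makes these transcripts one family, so the coding bases of the domain are shown for 5 of the 6 ligands, and the sequence of Hbegf is not used here. They were read from the GENCODE M21 transcripts on GRCm38, 5′ to 3′ on the coding strand, from the first to the last of the 6 conserved cysteines. The capitals mark the 6 cysteine codons.
Areg: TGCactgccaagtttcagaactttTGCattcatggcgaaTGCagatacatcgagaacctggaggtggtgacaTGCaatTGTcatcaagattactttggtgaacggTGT
Ereg: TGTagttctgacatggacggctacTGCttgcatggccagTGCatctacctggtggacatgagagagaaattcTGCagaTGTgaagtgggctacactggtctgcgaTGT
Epgn: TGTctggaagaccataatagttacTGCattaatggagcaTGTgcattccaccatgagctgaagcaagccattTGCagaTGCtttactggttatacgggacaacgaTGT
Tgfa: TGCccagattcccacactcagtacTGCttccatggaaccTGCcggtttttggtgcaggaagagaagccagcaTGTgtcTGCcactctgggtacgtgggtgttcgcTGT
Btc: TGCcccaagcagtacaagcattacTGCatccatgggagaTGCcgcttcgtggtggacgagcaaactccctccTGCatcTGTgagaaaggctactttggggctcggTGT
Each stretch is 108 bases long and encodes 36 residues, with all 6 cysteines at the same positions. In every one of the 5 genes the stretch spans 2 coding exons. The encoded residues are 33.3% identical between Areg and Ereg and between Areg and Epgn, the lowest values among the 10 pairs of these 5 genes. They are 52.8% identical between Tgfa and Btc, the highest. Areg, Ereg and Epgn, whose levels range most widely over the groups below, are not the most alike in this domain.

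In the authors' tables (GRCm38), Epgn (ENSMUSG00000035020, chr5:91027464-91035215, plus strand), Ereg (ENSMUSG00000029377, chr5:91074622-91093646, plus strand), Areg (ENSMUSG00000029378, chr5:91139599-91148432, plus strand) and Btc (ENSMUSG00000082361, chr5:91357261-91402994, minus strand) lie next to each other on chromosome 5. Tgfa (ENSMUSG00000029999) is at chr6:86195223-86275719 on the plus strand, and Hbegf (ENSMUSG00000024486) is on the minus strand of chromosome 18. Erbb2 (ENSMUSG00000062312) is at chr11:98412470-98437716 on the plus strand and Erbb3 (ENSMUSG00000018166) at chr10:128567523-128589652 on the minus strand. Errfi1 (ENSMUSG00000028967) is at chr4:150853919-150868892 on the plus strand. The values below are per gene, as the authors counted them.

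Across the series, the authors' FPKM denominators, which stand for depth here, ran from 14695420 to 15093994 in WT, from 16857744 to 18912526 in PN and from 17422590 to 20198041 in PCN. Trp53 stood at 29.2 to 30.0 FPKM in WT and at 0.562 to 0.979 in the 6 edited libraries. Notch1 stood at 14.97 to 19.5 FPKM in WT, with 9.87 to 10.8 in PN and 4.67 to 5.40 in PCN. Cdkn2a, whose whole-gene count does not check an edit inside it, was highest in the organoids labelled as its knockout, at 53.2 to 59.9 FPKM, against 18.3 to 19.4 in PN and 5.54 to 8.83 in WT. PCN below therefore means the libraries labelled PCN. Summed over the 16 of 18 markers of suprabasal squamous cells with values, the level was 16549 to 17464 FPKM in WT, with 2912 to 3082 in PN and 3204 to 3297 in PCN. Summed over 8 of 12 basal epithelial markers it was 1930 to 2316, 2254 to 2354 and 3082 to 3243 FPKM. The suprabasal sum is lower in both edited groups, as are most ligands. Its part in the ligand results was not tested, and fewer cells of a type and less RNA per cell cannot be told apart in these bulk samples.

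Seen together, the organoids without an edit held the most ligand transcript, and the edited organoids held less of it in a different mix. On the FPKM scale, which corrects for gene length, the 6 ligands summed to 169.9 ± 16.7 in WT (SD, n = 3), 73.6 ± 3.4 in PN and 50.8 ± 1.5 in PCN. The 3 groups did not overlap, with WT libraries at 158 to 189, PN at 71.2 to 77.5 and PCN at 49.6 to 52.5. Hbegf made up the largest share in each group: 51.1% ± 2.0 in WT, 40.2% ± 0.9 in PN and 59.1% ± 1.1 in PCN. Areg gave 27.7% ± 1.9 of the sum in WT and 21.9% ± 1.3 in PN but 5.57% ± 0.40 in PCN. Epgn gave 0.164% ± 0.082 in WT, 10.4% ± 0.4 in PN and 1.46% ± 0.26 in PCN. Tgfa, whose fold changes against WT were the smallest of the ligands, gave 13.8% ± 0.6 of the sum in WT but 18.6% ± 0.5 in PN and 28.9% ± 1.7 in PCN.

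**Figure D1:**
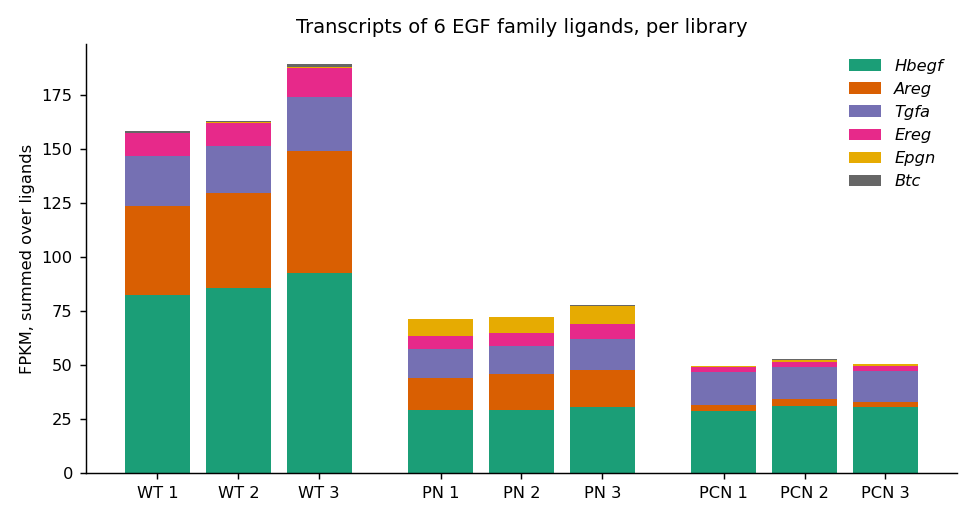
Stacked bars give the FPKM of the 6 ligand genes in each of the 9 libraries (x axis: group and replicate; y axis: FPKM summed over ligands). WT bars reach 158 to 189, PN bars 71.2 to 77.5 and PCN bars 49.6 to 52.5, and the Epgn segment is wide only in the 3 PN bars.

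Against WT, PN organoids had lower levels of 8 members and a higher level of 1, Epgn. In edgeR's quasi-likelihood F test, with p adjusted by Benjamini-Hochberg over 17165 genes, 9 of the 10 members passed an adjusted p of 0.05, against a background of 36.4% of all genes tested (17.6% higher, 18.8% lower). In PCN against WT, 8 members passed, 0 higher and 8 lower, against 36.5% of 17300 genes (17.5% higher, 19.0% lower). In PCN against PN, 5 passed, with Erbb2 and Erbb3 higher and Areg, Ereg and Epgn lower, against 23.8% of 14758 genes (12.3% higher, 11.5% lower). These counts are a description, because a gene has values here only if the authors called it in at least 1 pair. The median log2 fold change of the fitted members was -1.07 in PN against WT (all fitted genes, -0.26), -1.46 in PCN against WT (all, -0.28) and -1.45 in PCN against PN (all, 0.16). These medians cover only the members that the authors listed in that pair, 9, 8 and 5. In PCN against WT, Epgn is left out, with 1.37 in the fit of all 9 libraries. In PCN against PN, Hbegf (0.02), Tgfa (0.09), Errfi1 (-0.17) and Btc (-0.36) are left out, so that median does not describe all members. Each pair of comparisons shares 1 group of libraries, so none of them is a separate check of another.

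**Figure D2:**
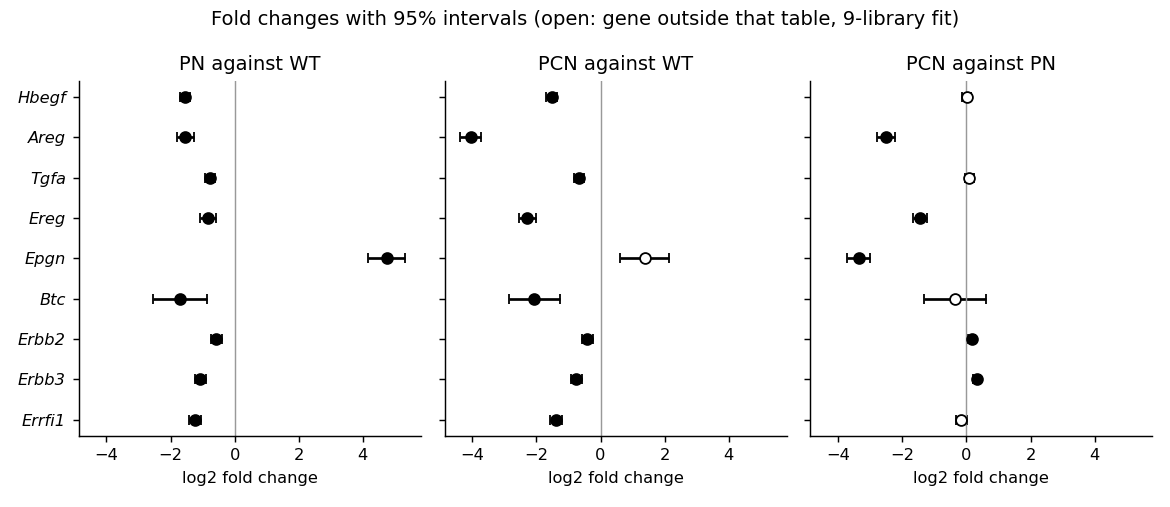
Points give the log2 fold change of each gene with its 95% interval in the 3 comparisons (x axis: log2 fold change). Filled points are genes of that comparison's own table, and open points are values from a fit of all 9 libraries. Epgn lies at 4.74 in PN against WT and at -3.36 in PCN against PN, opposite to its 8 companions in the first of these.

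Areg encodes amphiregulin, a ligand that binds EGFR and is made abundantly by growing epithelia. Its level was 41.5, 43.9 and 56.4 FPKM in the WT libraries, 14.5, 16.5 and 17.3 in PN, and 2.61, 3.17 and 2.74 in PCN. The groups form 3 steps with no overlap, and every PCN library lies below every PN library. The log2 fold change was -1.54 ± 0.12 (SE) in PN against WT (edgeR adjusted p = 5.2e-07), -4.05 ± 0.15 in PCN against WT (adjusted p = 1.2e-10) and -2.51 ± 0.13 in PCN against PN (adjusted p = 5.3e-15). In linear terms this is 2.91-fold lower in PN and 16.6-fold lower in PCN than in WT. The third WT library was the highest of its group for Areg, and also for Ereg, Epgn, Btc, Hbegf, Tgfa, Erbb3 and Errfi1, but not for Erbb2. Without that library the Areg values against WT were -1.39 in PN and -3.91 in PCN.

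Ereg encodes epiregulin, a ligand of EGFR and ERBB4, and is the upstream neighbour of Areg. It stood at 10.4, 10.6 and 13.3 FPKM in WT, 6.08, 5.98 and 7.07 in PN, and 2.18, 2.31 and 2.51 in PCN. The same 3 steps appear as for Areg, with shallower falls. Its log2 fold change was -0.83 ± 0.11 in PN against WT (edgeR adjusted p = 6.3e-05), -2.29 ± 0.12 in PCN against WT (adjusted p = 5.2e-09) and -1.45 ± 0.10 in PCN against PN (adjusted p = 3.2e-12). The ratio of Areg to Ereg FPKM was 4.12 ± 0.13 in WT, 2.53 ± 0.20 in PN and 1.22 ± 0.14 in PCN (SD, n = 3 each), with no overlap between groups.

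Epgn encodes epigen, a low-affinity ligand of EGFR, and ran against the rest. It stood at 0.333, 0.113 and 0.403 FPKM in WT, on 9, 3 and 11 counts. The PN libraries stood at 7.58, 7.14 and 8.19 FPKM on 231, 219 and 280 counts, and the PCN libraries at 0.575, 0.826 and 0.832 FPKM on 21, 26 and 28 counts. Epgn was thus high in the 3 PN libraries and low in all others, and the WT values rest on few counts. The gene was higher in PN than in WT by 4.74 ± 0.27 on the log2 scale (edgeR adjusted p = 1.7e-08), a 26.7-fold difference, and its log2 fold change in PCN against PN was -3.36 ± 0.18 (adjusted p = 3.5e-15), a 10.3-fold difference. For PCN against WT, a pair in which the authors did not list the gene, the fit of all 9 libraries gave 1.37 ± 0.36 (95% interval 0.60 to 2.14), and the gene is not counted as called there. Areg and Epgn, the members with the widest range over the groups, therefore part in PN and fall together from PN to PCN.

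**Figure D3:**
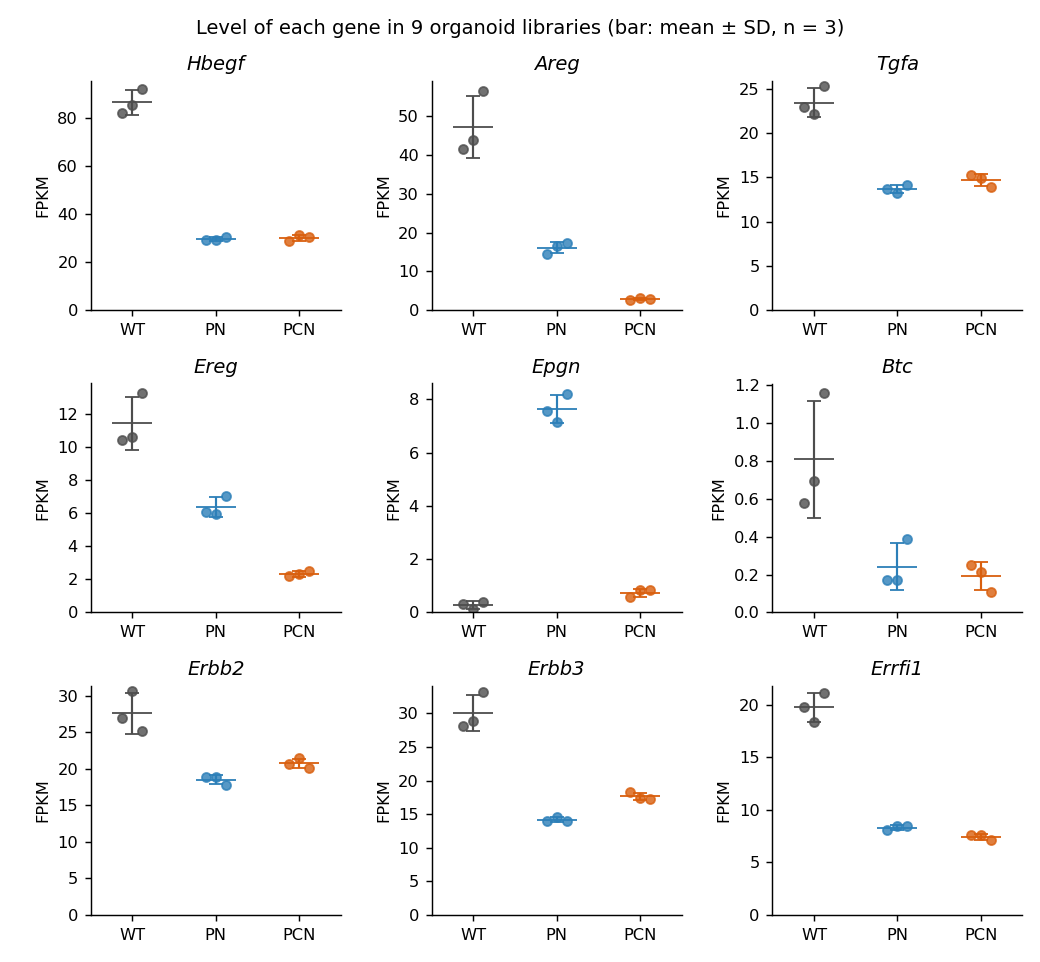
Each panel plots the FPKM of 1 gene (y axis, starting at 0) in the 3 WT, 3 PN and 3 PCN libraries (x axis), with points for libraries and a bar for the mean ± SD. Areg and Ereg descend in 3 steps, Epgn is high only in PN (7.14 to 8.19), and Hbegf and Tgfa sit at overlapping levels in PN and PCN.

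Hbegf encodes heparin-binding EGF-like growth factor, a ligand of EGFR and ERBB4 known for wound repair, and was the most abundant member per length in each group. The WT libraries stood at 82.2, 85.4 and 92.4 FPKM, PN at 29.2, 29.1 and 30.4, and PCN at 28.7, 31.1 and 30.3. Both edited groups lie at about the same level, far below WT. The log2 fold change against WT was -1.54 ± 0.07 in PN (edgeR adjusted p = 2.7e-09) and -1.52 ± 0.08 in PCN (adjusted p = 2.3e-09). Between PCN and PN the 9-library fit gave 0.02, with a 95% interval of -0.12 to 0.16.

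Tgfa encodes transforming growth factor alpha, an EGFR ligand made by keratinocytes. It stood at 23.0, 22.1 and 25.3 FPKM in WT, 13.7, 13.2 and 14.2 in PN, and 15.3, 14.9 and 13.9 in PCN. The WT libraries lie above both edited groups, which overlap. The log2 fold change was -0.77 ± 0.07 in PN against WT (edgeR adjusted p = 2.7e-06) and -0.67 ± 0.08 in PCN against WT (adjusted p = 1.0e-05). The PCN to PN difference was 0.09, with a 95% interval of -0.05 to 0.24.

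Btc encodes betacellulin, a ligand of EGFR and ERBB4, and was scarce throughout. The counts were 39, 46 and 79 in WT, 13, 13 and 33 in PN, and 23, 17 and 9 in PCN, or 0.809 ± 0.308, 0.242 ± 0.125 and 0.192 ± 0.075 FPKM (SD, n = 3). Each WT library was above every edited one, while PN and PCN overlapped. Btc was lower than in WT by a log2 fold change of -1.70 ± 0.38 in PN (edgeR adjusted p = 0.0029) and -2.06 ± 0.37 in PCN (adjusted p = 5.1e-04). Its interval for PCN against PN, -1.31 to 0.60, is too wide to place the groups in order.

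Among the receptors, Erbb2 encodes the partner receptor with no ligand of its own. It stood at 27.0, 30.7 and 25.2 FPKM in WT, 18.9, 18.9 and 17.8 in PN, and 20.6, 21.5 and 20.2 in PCN. No 2 groups overlap, with PCN between PN and WT. Its log2 fold change was the smallest of the members in either comparison with WT: -0.57 ± 0.08 in PN (edgeR adjusted p = 9.4e-05) and -0.41 ± 0.08 in PCN (adjusted p = 0.0013). Its PCN to PN difference of 0.16 ± 0.05 passed at an adjusted p of 0.019, and over its alternatives the adjusted p ran from 0.013 to 0.21. It did not pass without the second PCN library (0.14, adjusted p = 0.099) or without the third PN library (0.14, adjusted p = 0.12).

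Erbb3 encodes the receptor for neuregulins that signals mainly to PI3K. It stood at 28.2, 28.9 and 33.1 FPKM in WT, 13.97, 14.6 and 13.9 in PN, and 18.3, 17.4 and 17.3 in PCN. As for Erbb2, PCN lay between PN and WT with no overlap. The log2 fold change was -1.07 ± 0.08 in PN against WT (edgeR adjusted p = 1.7e-07), -0.76 ± 0.08 in PCN against WT (adjusted p = 3.5e-06) and 0.32 ± 0.05 in PCN against PN (adjusted p = 2.7e-05). The ratio of Erbb3 to Erbb2 FPKM was 1.1 ± 0.2 in WT, 0.766 ± 0.022 in PN and 0.851 ± 0.038 in PCN.

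Errfi1 encodes the receptor inhibitor also known as MIG6. It stood at 19.8, 18.4 and 21.1 FPKM in WT, 8.06, 8.42 and 8.44 in PN, and 7.63, 7.56 and 7.14 in PCN. Both edited groups were well below WT, and PCN lay just under PN. The log2 fold change was -1.24 ± 0.08 in PN against WT (edgeR adjusted p = 8.7e-08) and -1.40 ± 0.09 in PCN against WT (adjusted p = 1.9e-08). For PCN against PN the 9-library fit gave -0.17 with a 95% interval of -0.33 to 0.00, and the authors did not list the gene in that pair.

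Ordered by level per length, the WT libraries ran from Hbegf (86.7 ± 5.2 FPKM) through Areg (47.2 ± 8.0), Erbb3 (30.1 ± 2.7), Erbb2 (27.6 ± 2.8), Tgfa (23.5 ± 1.6), Errfi1 (19.7 ± 1.3), Ereg (11.4 ± 1.6) and Btc (0.809 ± 0.308) to Epgn (0.283 ± 0.151). Erbb3 overlapped Erbb2 there, and Erbb2 overlapped Tgfa. In PN the order was Hbegf (29.6 ± 0.7), Erbb2 (18.5 ± 0.6), Areg (16.1 ± 1.4), Erbb3 (14.2 ± 0.4), Tgfa (13.7 ± 0.5), Errfi1 (8.31 ± 0.21), Epgn (7.64 ± 0.53), Ereg (6.38 ± 0.60) and Btc. Areg overlapped Erbb3, Erbb3 overlapped Tgfa, and Errfi1 overlapped Epgn. In PCN it was Hbegf (30.0 ± 1.2), Erbb2 (20.8 ± 0.6), Erbb3 (17.7 ± 0.6), Tgfa (14.7 ± 0.7), Errfi1 (7.44 ± 0.27), Areg (2.84 ± 0.29), Ereg (2.33 ± 0.17), Epgn (0.744 ± 0.146) and Btc, with no overlap between neighbours. Areg thus moved from the second place in WT to the sixth in PCN.

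The 4 chromosome 5 ligands span 375.5 kb from the start of Epgn to the end of Btc. The gaps are 39.4 kb from Epgn to Ereg, 46.0 kb from Ereg to Areg and 208.8 kb from Areg to Btc. Their summed level was 59.8 ± 10.1 FPKM in WT, 30.4 ± 2.4 in PN and 6.11 ± 0.45 in PCN, so the drop of the 6-ligand sum from PN to PCN lies in this group, while Hbegf and Tgfa overlapped between PN and PCN. Within it, direction was not shared in PN against WT: Epgn rose while Ereg, Areg and Btc fell. From PN to PCN, Epgn, Ereg and Areg all fell. All fitted genes of chromosome 5 had a median log2 fold change of 0.37 in PN against WT, 0.33 in PCN against WT and -0.20 in PCN against PN.

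Of the 12 other protein-coding genes within 500 kb of the ligands, 8 had values. They include the neutrophil chemokine genes Cxcl1 and Cxcl2, which lie on the Epgn side. Cxcl1 stood at 0.784 ± 0.490 FPKM in WT, 7.402 ± 0.551 in PN and 14.6 ± 0.1 in PCN. Its log2 level was higher by 3.24 ± 0.28 in PN and by 4.21 ± 0.25 in PCN against WT (edgeR adjusted p = 1.1e-06 and 5.2e-08), and by 0.98 ± 0.09 in PCN against PN (adjusted p = 9.7e-10). Unlike Epgn, Cxcl1 did not fall from PN to PCN. Ppbp, a platelet chemokine gene, had -1.52 ± 0.18 and -1.24 ± 0.11 in the comparisons with WT (adjusted p = 1.2e-04 and 5.1e-07). Parm1, beyond Btc, was lower in PN than in WT by a log2 fold change of -1.91 ± 0.23 (adjusted p = 1.9e-05) and higher in PCN than in PN by 1.46 ± 0.22 (adjusted p = 5.9e-06). No single direction held over the window in any of the 3 comparisons.

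**Figure D4:**
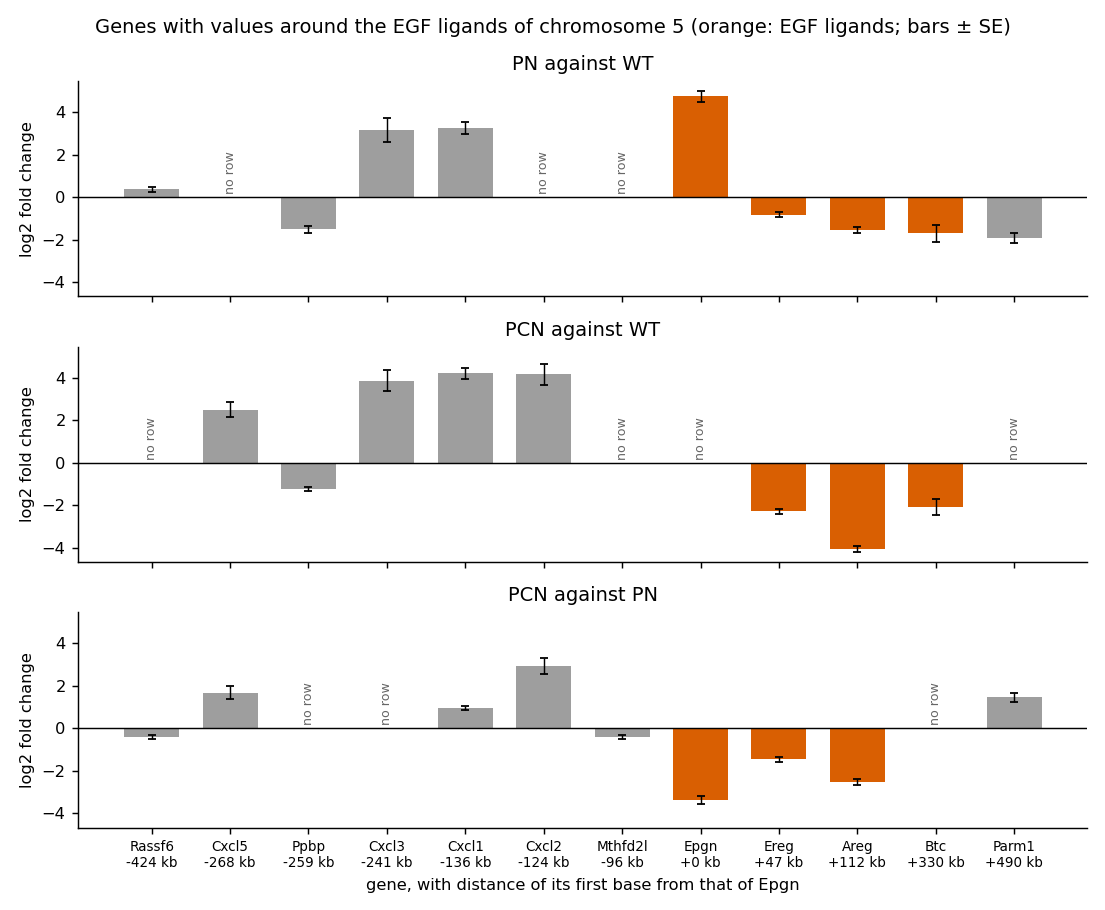
Bars give the log2 fold change ± SE of genes with values around the chromosome 5 ligands, ordered by position (x axis: gene and distance of its lowest coordinate from that of Epgn, in kb; orange: EGF ligands; grey: other genes; "no row" marks a gene outside that pair's table). In PN against WT Epgn points up at 4.74 while Ereg, Areg and Btc point down, and in PCN against PN all 3 drawn ligands point down while Cxcl1 points up.

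Because Areg and Epgn lie in the same cluster, with Ereg between them, and have unlike patterns, the 250 bases before their RefSeq starts are shown from the RefSeq promoter table (GRCm38.p6). The capitals mark a cyclic AMP response element, TGACGTCA, in the Areg window, where it lies 61 bases before the start. The Areg window is chr5:91139349-91139598 and the Epgn window chr5:91027267-91027516, both on the plus strand.
Areg: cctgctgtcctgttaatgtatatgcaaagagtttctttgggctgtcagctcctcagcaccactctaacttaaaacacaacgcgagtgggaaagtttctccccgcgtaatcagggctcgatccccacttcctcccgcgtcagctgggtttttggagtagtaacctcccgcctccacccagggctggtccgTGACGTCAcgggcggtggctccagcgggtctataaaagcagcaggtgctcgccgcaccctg
Epgn: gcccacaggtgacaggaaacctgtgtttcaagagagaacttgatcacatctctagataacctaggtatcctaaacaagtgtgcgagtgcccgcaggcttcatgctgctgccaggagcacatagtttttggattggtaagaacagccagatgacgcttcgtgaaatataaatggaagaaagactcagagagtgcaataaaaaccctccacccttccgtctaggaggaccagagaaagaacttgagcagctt
The table holds 8 windows for 7 members, among them Egfr, whose transcript level is not analysed here. Promoters of Ereg, Hbegf and Erbb3 are not analysed here. Letters were searched on both strands. TGACGTCA, added to the search after these sequences had been seen, occurs in 2 of the 8 windows (Areg and 1 of 2 Errfi1 windows) and in 1.5% of all 32851 windows of that length. The AP-1 letters TGANTCA occur in 0 of the 8 and in 6.7% of all. The RBPJ letters TGGGAA, the core bound by the Notch pathway factor, occur in 1 of the 8, that of Areg, and in 21.6% of all. The TEAD letters GGAATG occur in 2 of the 8, those of Errfi1 and Erbb2, and in 12.6% of all. A match is a run of letters and not a measured binding site.

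By the correlation of log2(CPM + 1) over the 9 libraries, among 5690 genes, the genes most like Areg were Rab10 (r = 0.999), Actn1 (r = 0.997) and Ereg (r = 0.996). CPM here is the count scaled by the same denominator as FPKM, without the gene length. Those most like Epgn were Akr1b3 (r = 0.992), Zdhhc2 (r = 0.987) and Ampd3 (r = 0.986). Akr1b3 stood at 104.4 ± 3.3 CPM in WT, with 160.7 ± 3.6 in PN and 112.3 ± 5.5 in PCN, so it shares the shape of Epgn and not its size. Rab10 stood at 560.3 ± 38.0, 345.7 ± 5.2 and 178.7 ± 3.5 CPM in WT, PN and PCN, and Actn1 at 326.6 ± 29.0, 229.6 ± 9.6 and 123.5 ± 4.1. Areg stood at 57.4 ± 9.8, 19.6 ± 1.8 and 3.45 ± 0.35 CPM, so these genes share its order and not its size of fall. Rab10 and Actn1 both lie on chromosome 12, where 273 of 276 called genes before 95 Mb were lower in PCN than in WT. These values describe 3 clusters of 3 libraries and carry no test.

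Other genes of the pathway were taken from 7 lists chosen by function, and the share of a list that passed is set beside the 36.4% of all genes tested in PN against WT, 36.5% in PCN against WT and 23.8% in PCN against PN. A share near these is no result about the list. Of the 5 other ligand genes, Nrg1 and Nrg2 had values, and both encode neuregulins, the ligands of ERBB3 and ERBB4. Nrg1 stood at 147.3 ± 9.8 CPM in WT, with 91.4 ± 7.2 in PN and 73.4 ± 4.4 in PCN. Its log2 fold change was -0.68 ± 0.08 in PN against WT, -1.001 ± 0.080 in PCN against WT and -0.32 ± 0.06 in PCN against PN (edgeR adjusted p = 1.7e-05, 2.7e-07 and 2.0e-04). Nrg2 rose in both comparisons with WT, by 0.58 ± 0.14 (adjusted p = 0.0069) and 0.49 ± 0.16 (adjusted p = 0.042). Erbb4, the only gene of its list, is not analysed here.

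Among genes for shedding of the ligands, the main sheddase was lower in PCN. In PN against WT, 1 of the 9 listed genes passed as higher and 3 as lower. In PCN against WT 0 were higher and 2 lower, and in PCN against PN 2 were higher and 1 lower. These are 44.4%, 22.2% and 33.3% of the list, on either side of the background. Adam17, the main sheddase of Areg, Ereg, Hbegf and Tgfa, had a log2 fold change of -1.001 ± 0.085 in PCN against WT (edgeR adjusted p = 4.6e-07) and -0.78 ± 0.06 in PCN against PN (adjusted p = 4.4e-12). It too lies on chromosome 12 before 95 Mb, where the median log2 fold change was -1.04 and -0.92 in these comparisons, so its value is near that of its neighbours. In PN against WT Adam17 was also called lower, with a smaller change of -0.21 ± 0.07 (adjusted p = 0.035). Adam15 was lower in PN than in WT (-0.48 ± 0.09, adjusted p = 6.8e-04) and higher in PCN than in PN (0.61 ± 0.07, adjusted p = 1.3e-08).

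Of 20 listed inhibitors and turnover factors of the receptors, 2 were higher and 5 lower in PN against WT, 2 and 5 in PCN against WT, and 4 and 3 in PCN against PN. Each count is 35.0% of the list, near the background of the comparisons with WT and above the 23.8% of PCN against PN. Cblc, which encodes an E3 ubiquitin ligase of the receptors in epithelia, stood at 56.3 ± 6.6 CPM in WT, with 16.6 ± 1.4 in PN and 16.8 ± 1.8 in PCN. It fell by 1.75 ± 0.11 in both comparisons with WT on the log2 scale (edgeR adjusted p = 4.9e-08 in PN and 3.4e-08 in PCN). Its relative Cblb rose by 0.56 ± 0.10 in PN and by 0.41 ± 0.11 in PCN against WT (adjusted p = 6.3e-04 and 0.011). Socs4 stood at 69.4 ± 4.8 CPM in WT, with 51.1 ± 3.6 in PN and 73.6 ± 4.4 in PCN. Its log2 fold change was -0.43 ± 0.08 in PN against WT (edgeR adjusted p = 0.0011) and 0.53 ± 0.06 in PCN against PN (adjusted p = 1.3e-07). It lies on chromosome 14, where 17 called genes were higher and 259 lower in PN against WT. In PCN against PN 322 were higher and 5 lower there, and in PCN against WT 101 and 107.

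Adaptors and RAS activators, 24 on the list, had 4 higher and 7 lower in PN against WT, 5 and 5 in PCN against WT, and 5 and 3 in PCN against PN. These are 45.8%, 41.7% and 33.3% of the list, somewhat above the background in each comparison and not tested against it. Mapk3, which encodes the kinase ERK1, stood at 206.3 ± 31.0 CPM in WT, with 79.9 ± 3.4 in PN and 107.9 ± 3.9 in PCN. Its log2 fold change was -1.36 ± 0.10 in PN and -0.93 ± 0.10 in PCN against WT (edgeR adjusted p = 2.9e-07 and 8.4e-06), and 0.43 ± 0.06 in PCN against PN (adjusted p = 2.5e-07). Like Erbb2 and Erbb3 it was lowest in PN. Gab1, a docking protein of the receptors, had -1.07 ± 0.11 in PN and -0.69 ± 0.13 in PCN against WT (adjusted p = 5.1e-06 and 4.9e-04). Sos2, a RAS exchange factor on the same stretch of chromosome 12, had -1.22 ± 0.09 in PCN against WT (adjusted p = 1.9e-07) and -1.04 ± 0.07 in PCN against PN (adjusted p = 1.8e-13).

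The PI3K and AKT arm, 16 on the list, split evenly against WT, with 4 higher and 4 lower in PN and 3 and 3 in PCN, and with 3 higher and 2 lower in PCN against PN. These are 50%, 37.5% and 31.2% of the list. Irs2, an adaptor that binds PI3K, fell in both comparisons, with -1.01 ± 0.09 in PN and -0.95 ± 0.10 in PCN (edgeR adjusted p = 1.7e-06 and 2.7e-06). Pik3cb was also lower in both, with -0.75 ± 0.12 in PN and -1.01 ± 0.13 in PCN against WT (adjusted p = 2.3e-04 and 3.3e-05). Pik3r3 had -0.98 ± 0.16 in PCN against PN (adjusted p = 2.0e-05).

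Genes that respond to ERK signalling or feed back on it moved in both directions, with more lower than higher against WT. Of 25 listed genes, 6 were higher and 14 lower in PN against WT, with a median log2 fold change of -0.90 against -0.26 for all fitted genes. In PCN against WT 6 were higher and 10 lower (median -0.60 against -0.28), and in PCN against PN 9 were higher and 4 lower (median 0.21 against 0.16). These are 80.0%, 64.0% and 52.0% of the list, above the background in each comparison and not tested against it. Dusp5, a nuclear phosphatase of ERK that ERK induces, stood at 99.2 ± 4.2 CPM in WT, with 6.18 ± 1.25 in PN and 8.11 ± 1.24 in PCN. Its log2 fold change was -3.99 ± 0.12 in PN and -3.61 ± 0.11 in PCN (edgeR adjusted p = 5.7e-11 and 1.5e-11). Plaur, the urokinase receptor gene, had -1.96 ± 0.25 and -1.999 ± 0.248 (adjusted p = 3.5e-05 and 1.8e-05). The ERK phosphatase gene Dusp6 moved the other way, with 0.34 ± 0.06 in PN and 0.22 ± 0.07 in PCN (adjusted p = 8.5e-04 and 0.024), and was named after its value was seen. Jun was higher in PCN than in PN by 1.82 ± 0.08 (adjusted p = 4.8e-17), with 59.6 ± 3.3 CPM in WT, with 15.7 ± 1.2 in PN and 55.5 ± 2.6 in PCN. Cdc42ep3 was higher in PCN than in PN by 1.40 ± 0.13 (adjusted p = 4.8e-10).

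**Figure D5:**
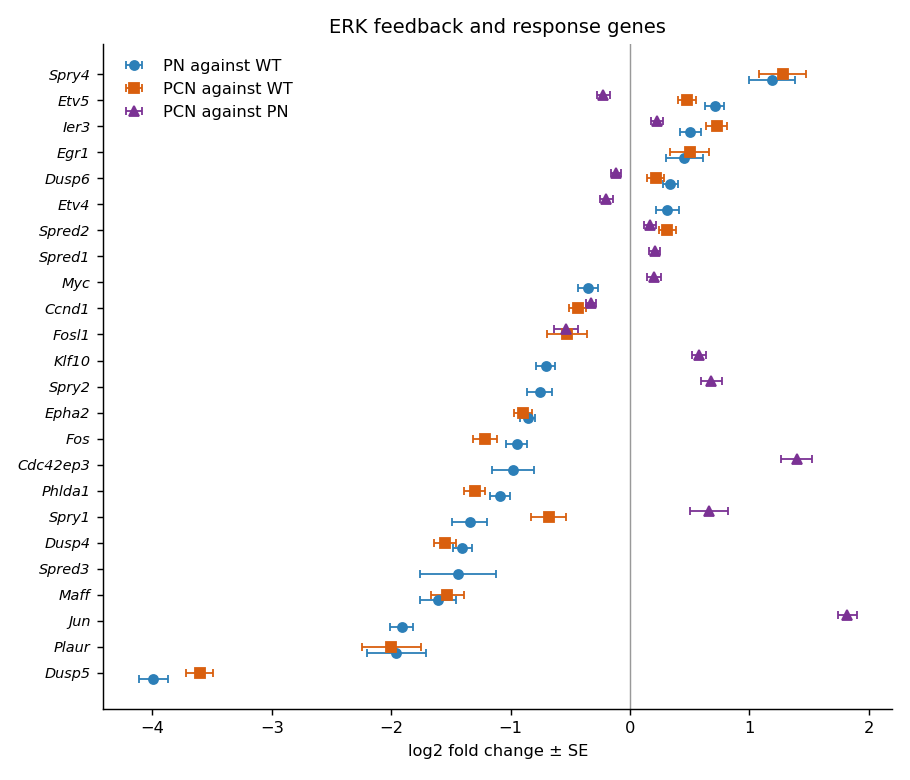
Points give the log2 fold change ± SE (x axis) of ERK feedback and response genes with a value in a pair's own fit, by comparison (circles: PN against WT; squares: PCN against WT; triangles: PCN against PN). Dusp5 lies farthest left, at -3.99 and -3.61, Spry4, Etv5, Ier3, Egr1 and Dusp6 lie right of 0 in both comparisons with WT, and Jun lies at 1.82 in PCN against PN.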

How the data were processed

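RNA from 9 organoid libraries was used. CASAVA, DESeq and GRCm38 (mm10) are named in the submitters' processing notes. Aligner, counter, annotation release and strand setting are not stated in the sources used here, so a gene and an overlapping antisense transcript cannot be told apart. The authors deposited 1 table for each of the 3 pairs, holding only genes they called. Raw counts per gene are the authors' own, per the file headers. Their deposited normalized signal equals the count over a size factor, constant for a library within a pair. FPKM values are the authors', per the file headers. The denominator they imply is 1 number per library and is not whole, so it is not a plain sum of counts. The log2 fold change, the p-value and its adjusted form in the tables are the authors', per the file headers, and were used only to select genes and to recover the number of genes tested.

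Each pair was fitted on its whole table by edgeR 4.0.16 (R 4.3.3), using its robust quasi-likelihood F test (filterByExpr, authors' size factors as offsets, two-sided), with Benjamini-Hochberg adjustment over the recovered 17165, 17300 or 14758 genes and a threshold of 0.05. Because the authors selected these genes on the same libraries, the refit is no independent evidence. Standard errors were worked back from the F statistic. Members outside a pair's table took values from 1 fit of all 9 libraries on genes with counts in each. FPKM was used for levels compared between genes and CPM for other genes. DESeq2 1.42.0 and TMM were alternatives. The fits were also run on simulated counts. That run did not imitate the authors' selection of genes, and no outcome of it is used here.

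All members were named, and of each other list up to 2 genes that passed, with the largest change and at least 5 CPM in the higher group. One gene that this rule names is not reported here. Members, lists and the named-gene rule were chosen with earlier results of these data known. The titles number the replicates. In PN against WT the same-numbered libraries deviated together (r = 0.263, 0.138 and 0.254 over 5621 genes). Differently numbered libraries had r from -0.245 to 0.001 in that pair but from -0.129 to 0.318 in PCN against WT. Values of this size thus also occur without a shared number, and no label says what a number marks. The tests quoted above therefore used group only, without pairs. A block for the replicate number was run as an alternative.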

Additional observations from a re-analysis of the deposited data

How the results depend on the processing

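Members were recomputed only in pairs where the authors had called them on the same libraries. A kept call was therefore likely beforehand and is no independent evidence. Of 264 recomputed member fold changes, 259 stayed on their side of the threshold with their direction, 5 lost the call and 0 reversed. All 5 are Erbb2 in PCN against PN (0.16, adjusted p = 0.019): TMM (0.13, adjusted p = 0.065), the replicate block (0.16, adjusted p = 0.063), the fit of all 9 libraries (0.16, adjusted p = 0.21), and leaving out PCN replicate 2 or PN replicate 3 (0.14 each). The cause was not tested. Members higher in PCN against PN went from 2 to 1 under TMM, the replicate block and the 9-library fit, and ranged from 1 to 2 when each library was left out in turn. Other pathway genes called in that pair went from 37 to 24 in the 9-library fit, which tests fewer genes. In PN against WT and PCN against WT the counts of members (9 and 8) and of other pathway genes (52 and 43) stayed within 1.5 times under the alternatives run. The replicate block changed no other member's call. Same-numbered libraries did not deviate together in PCN against WT (r = -0.198, -0.135 and -0.334) or PCN against PN (r = -0.115, -0.117 and -0.162), so no pairing by number shows there. Low counts limit Btc and, in WT, Epgn.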

Other observations

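Markers of other cell types had few values here. Of 8 columnar and ciliated epithelium markers, 5 had values in all 9 libraries, and their summed level was 114.0 to 136.9 FPKM in WT, with 39.6 to 40.1 in PN and 21.6 to 24.2 in PCN. Krt7, a simple-epithelium keratin, had a log2 fold change of -4.01 ± 0.18 in PN against WT (edgeR adjusted p = 1.2e-08) and -3.52 ± 0.12 in PCN against WT (adjusted p = 5.5e-11). Of 9 leukocyte markers only Cd68, a lysosomal protein gene, had values (74.8 to 95.1 FPKM in WT, with 18.9 to 21.5 in PN and 11.96 to 13.5 in PCN), and of 7 endothelial markers only Esam (1.96 to 4.08, 1.62 to 2.09 and 1.59 to 2.10). None of the 9 fibroblast or 8 muscle and glia markers is analysed here. Of 18 suprabasal markers, 0 were higher and 13 lower in PN against WT, and 1 was higher and 14 lower in PCN against WT. These are 72.2% and 83.3% of the list, beside 36.4% and 36.5% of all genes tested. A marker was fitted only if the authors had called it in that pair. Mal stood at 617.6 ± 14.2 CPM in WT, with 16.0 ± 1.3 in PN and 23.5 ± 3.3 in PCN. Of the 12 basal markers, 3 were higher and 3 lower in PN against WT, 5 and 3 in PCN against WT, and 5 and 2 in PCN against PN. The called basal markers make up 50%, 66.7% and 58.3% of the list, beside 36.4%, 36.5% and 23.8% of all genes tested. The difference from all genes was not tested. Among the basal markers, Col17a1 stood at 1342 ± 177 CPM in WT, with 1080 ± 22 in PN and 1612 ± 57 in PCN. Krt15 stood at 300.4 ± 32.4, 730.9 ± 15.9 and 1644 ± 38 CPM in the same order. Krt15 thus rose over WT, PN and PCN in the order in which Areg fell, by 1.29 ± 0.08 and 2.46 ± 0.09 against WT on the log2 scale (adjusted p = 5.2e-08 and 7.0e-11).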
